A study of Homo sapiens with 3 samples.

Results

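ALKBH5 and 9 other genes of the m6A machinery were followed through ribosome profiling of HEK293T, an immortal line from human embryonic kidney in which a viral large T antigen is expressed. The genes were taken by symbol, and all 10 were listed in each of the 3 libraries, among 8812 transcripts listed in all of them. All 10 also reached the read minimum used here, 384 CDS reads summed over the 3 libraries, as did 5684 transcripts in all. ALKBH5 was chosen by its change in CDS density in this same contrast, so its change is given as a description with no test. The others were added for their function, with earlier results of these data known.

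The libraries were Untreated A and Untreated B, from cells without drug, and G418 A, from cells kept for 24 hours in 500 µg/mL G418. The drug, an aminoglycoside, makes decoding by the ribosome less accurate, so that stop codons are read through, and the study asked on which messages this happened. Ribosome profiling counts the mRNA fragments that ribosomes protect (ribosome protected fragments, RPFs). The density on a coding sequence (CDS) therefore mixes the amount of mRNA with how many ribosomes each mRNA carries, and the 2 cannot be told apart here. No gene that marks HEK293T was analysed here, and the untreated libraries are biological replicates according to the study.

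N6-methyladenosine (m6A) is the most common internal modification of mRNA. Writers add it, erasers remove it and readers bind it. METTL3 is the catalytic subunit of the main writer complex and METTL14 its partner in binding RNA, while WTAP and RBM15 help to place the complex on its targets. ALKBH5 and FTO are iron-dependent dioxygenases that remove the methyl group. YTHDF1, YTHDF2 and YTHDF3 are cytoplasmic readers that affect the decay and use of marked mRNAs, and YTHDC1 is the nuclear reader.

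The stop codons of 6 of these genes are shown because readthrough was read just after them. Each RNA sequence runs 5′ to 3′ over 30 bases of the reference transcript (GENCODE release 44, hg38), and the capitals mark the stop codon with the next nucleotide, the stop signal. YTHDF1, ALKBH5 and FTO share the signal UGAG, METTL3 has UAGA, and YTHDC1 and WTAP have UAAU.
YTHDF1: agucgaaacaaacaaUGAGggcgaaccagu
ALKBH5: aagaugcggcggcacUGAGucuacccgccg
FTO: cugggauuacagguaUGAGcuaaugccuca
METTL3: aaaccuaagaauuuaUAGAagcacuuccuu
YTHDC1: ggucgauauagaagaUAAUgggcuuuugga
WTAP: caggguucaguuuugUAAUauuuuuucagc

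The YTHDF1 bases lie at chr20:63196696-63196725 on the minus strand, in exon 5 of 5. The ALKBH5 bases lie at chr17:18208379-18208408 on the plus strand, in exon 4 of 4. The FTO bases lie at chr16:54152208-54152237 on the plus strand, in exon 11 of 11. The METTL3 bases lie at chr14:21498246-21498275 on the minus strand, in exon 11 of 11. The YTHDC1 bases lie at chr4:68314087-68314116 on the minus strand, in exon 16 of 16. The WTAP bases lie at chr6:159755594-159755623 on the plus strand, in exon 8 of 8. In each case the CDS ends inside the last exon and the 3′UTR begins there. The FTO transcript in these tables does not end at the stop codon of the MANE Select transcript, the reference isoform, which lies at 54111913 to 54111915. RBM15 likewise carries another stop codon than its MANE Select transcript, and the other 8 members share theirs.

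ALKBH5 stood apart from the other genes. Its CDS density (RPKM) came to 44.3 in G418 A, against 9.93 in Untreated A and 22.2 in Untreated B. The G418 library was the highest, but the untreated libraries also lay far from each other. They rested on 368 CDS reads in the G418 library and on 67 and 242 in the untreated ones, and their exact Poisson 95% intervals (39.9 to 49.0, 7.70 to 12.6 and 19.5 to 25.1 RPKM) did not overlap. Such intervals cover counting error only.

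On the log2 scale ALKBH5 in G418 A exceeded Untreated A by 2.16 (95% counting interval 1.78 to 2.55) and exceeded Untreated B by 0.998 (0.76 to 1.24). The difference of Untreated B over Untreated A was 1.16 (0.76 to 1.57), so the 2 untreated libraries differed by more than G418 A differed from Untreated B. Over the mean of the untreated libraries, 16.0 ± 8.65 RPKM (SD, n = 2), ALKBH5 was 2.76-fold higher with G418, a log2 change of 1.46. With 2 libraries against 1, an exact two-sided permutation test cannot give a p under 0.333, and none was run.

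A change counts as past 2-fold here at a log2 value of at least 1 in size. Over the untreated mean, 1.06% of the 5684 transcripts were higher by at least 2-fold and 0.0880% were lower by as much. Over Untreated A alone 2.22% were higher by at least 2-fold, and over Untreated B alone 1.18%. ALKBH5 passed in the first and the second and lay just under the line in the last. It was the fifth highest of the 5684 transcripts over the untreated mean, the second over Untreated A and the 68th over Untreated B. Between the untreated libraries, 0.281% of transcripts were higher in Untreated B by at least 2-fold, and ALKBH5 was also one of these, the fifth highest. Since ALKBH5 was chosen on this contrast, these positions only describe it.

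**Figure D1:**
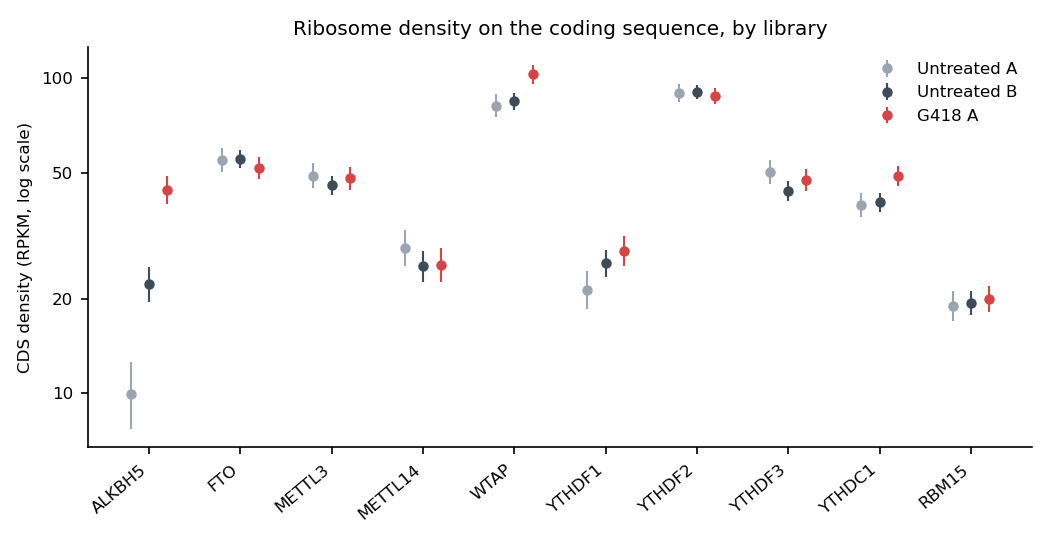
CDS density (RPKM, log axis) of the 10 m6A genes in Untreated A (light grey), Untreated B (dark grey) and G418 A (red), with exact Poisson 95% intervals as bars. ALKBH5 runs from 9.93 to 44.3 RPKM, and for the other genes the libraries lie close together.

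The other eraser did not share this pattern. FTO had 55.0, 55.5 and 51.9 RPKM in Untreated A, Untreated B and G418 A. Its log2 changes were -0.08 (against Untreated A) and -0.10 (against Untreated B), both with intervals that held 0. The lowest FTO value was thus that of the G418 library, by a margin within counting error.

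Among the writers, METTL3 had 49.1, 45.7 and 48.1 RPKM in the same order, so that G418 A lay between the untreated libraries. METTL14 had 29.0, 25.3 and 25.6 RPKM, again with G418 A between the untreated values. RBM15 had 19.0, 19.4 and 19.9 RPKM, and its counting intervals overlapped across all 3 libraries. WTAP was 81.8 and 84.5 RPKM in the untreated libraries and 103 RPKM in G418 A, above both. Its log2 changes were 0.33 (0.18 to 0.49) against Untreated A and 0.29 (0.15 to 0.42) against Untreated B, against 0.05 between the untreated libraries (-0.11 to 0.20).

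Among the readers, YTHDC1 behaved much like WTAP, with 39.7 and 40.5 RPKM untreated and 49.0 RPKM with G418. The log2 changes of YTHDC1 were 0.30 (0.14 to 0.47) against Untreated A and 0.27 (0.13 to 0.42) against Untreated B, against 0.03 between the untreated libraries. YTHDF1 had 21.4, 25.9 and 28.4 RPKM, and its log2 change of 0.13 over Untreated B was smaller than the 0.28 between the untreated libraries. YTHDF2 had 89.9, 90.7 and 87.9 RPKM, and its counting intervals overlapped across all 3 libraries. YTHDF3 had 50.5, 43.8 and 47.6 RPKM, with G418 A between the untreated values.

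None of these 9 genes came near a 2-fold change. Their log2 changes over the untreated mean ran from -0.09 for FTO to 0.31 for WTAP, with a median of 0.02, beside a median of 0.07 over the 5684 transcripts. Among these 9, WTAP and YTHDC1 were the ones in which the counting intervals of the change over both untreated libraries lay above 0, as they did in 23.5% of the 5684 transcripts. With 1 G418 library, no spread between G418 cultures can be set against them. Scaling by edgeR TMM factors lowered the median over all transcripts by 0.069 and turned the sign of the small positive values of METTL3, YTHDF3 and RBM15.

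**Figure D2:**
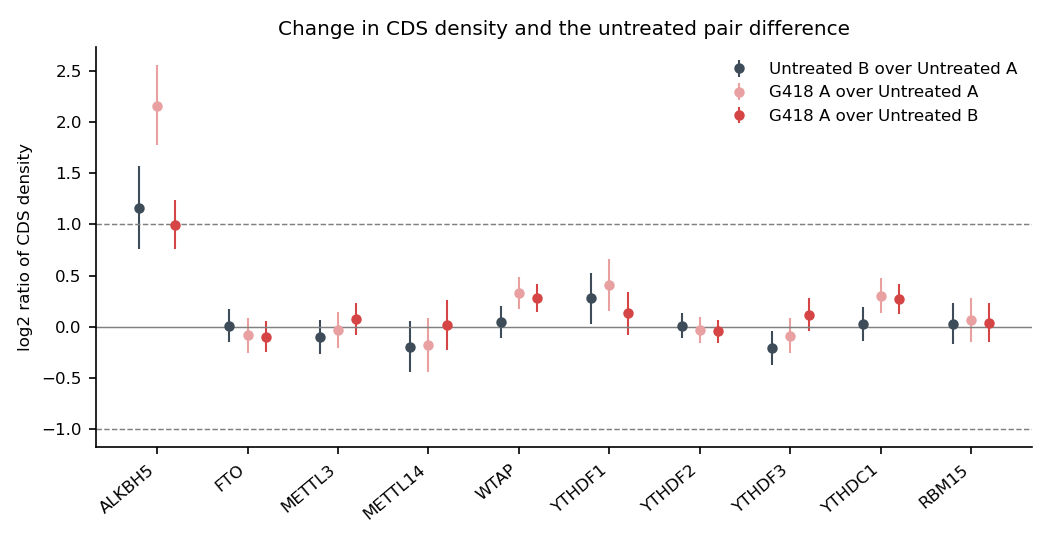
Log2 ratio of CDS density for each m6A gene, as Untreated B over Untreated A (dark grey), G418 A over Untreated A (pink) and G418 A over Untreated B (red), with exact 95% counting intervals. Dashed lines mark a 2-fold change. For ALKBH5 the untreated ratio (1.16) exceeds the ratio of G418 A over Untreated B (0.998).

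In CDS density per length, YTHDF2 (90.3 ± 0.54 RPKM, SD, n = 2) and WTAP (83.1 ± 1.86) were the highest of the 10 in untreated cells. FTO (55.3 ± 0.31), METTL3 (47.4 ± 2.41), YTHDF3 (47.2 ± 4.74) and YTHDC1 (40.1 ± 0.60) followed. METTL14 (27.1 ± 2.58), YTHDF1 (23.6 ± 3.20), RBM15 (19.2 ± 0.29) and ALKBH5 (16.0 ± 8.65) were the lowest. Neighbours in this order whose untreated values overlapped were METTL3 and YTHDF3, METTL14 and YTHDF1, and RBM15 and ALKBH5. In G418 A, ALKBH5 stood above YTHDF1, METTL14 and RBM15. Its counting interval (39.9 to 49.0 RPKM) overlapped those of YTHDF3 (43.8 to 51.5 RPKM), METTL3 (44.3 to 52.2), YTHDC1 (45.5 to 52.6) and FTO (47.9 to 56.2).

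GC content moved with the difference between the untreated libraries. Of the 5684 transcripts, 5513 (97.0%) could be matched to a reference CDS. Across these transcripts, which share libraries and are not independent, Pearson's r between the GC content of the CDS and the log2 ratio was 0.53 for Untreated B over Untreated A, 0.27 for G418 A over Untreated A and -0.15 for G418 A over Untreated B. The ALKBH5 CDS had a GC content of 63.3%, in the highest decile of transcripts, while the other 9 members ran from 42.5% (METTL14) to 56.6% (RBM15) and lay in lower deciles. In that highest decile, the median log2 ratio was 0.37 for Untreated B over Untreated A, 0.32 for G418 A over Untreated A and -0.03 for G418 A over Untreated B. The share of its 551 transcripts that were higher by at least 2-fold was 1.81%, 6.17% and 1.63% in the same order.

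The ALKBH5 ratios exceeded the medians of transcripts of like GC content in all 3 comparisons. As ALKBH5 was chosen on its change, this only describes it. With the median of that decile subtracted, its log2 change over the untreated mean was 1.33. This correction was chosen after seeing the data, and the part of GC content in the ALKBH5 difference was not tested.

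**Figure D3:**
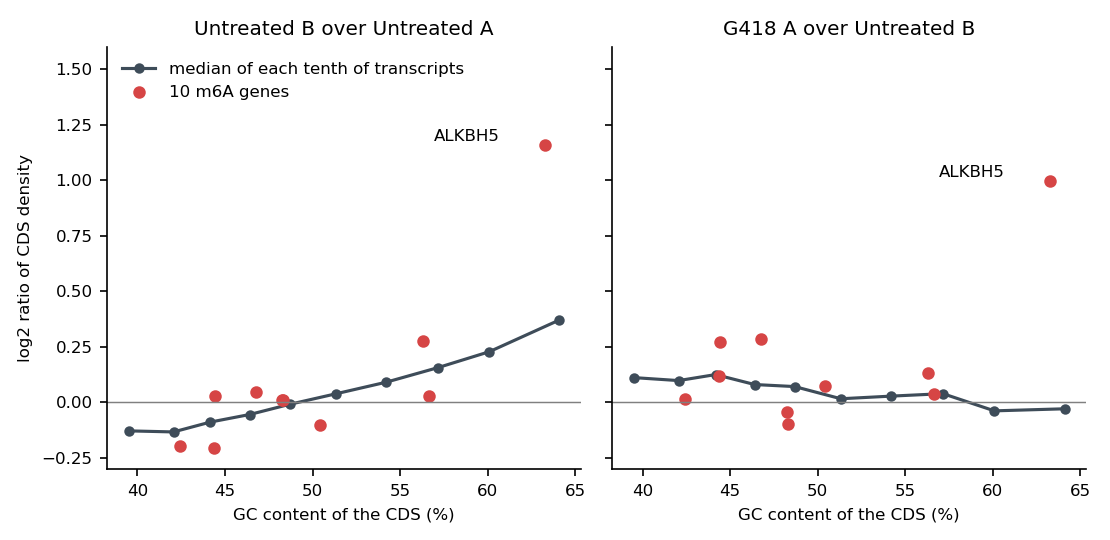
Log2 ratio of CDS density against the GC content of the CDS, for Untreated B over Untreated A (left) and G418 A over Untreated B (right). The line joins the medians of deciles of 5513 transcripts and red points are the 10 m6A genes. The line climbs to 0.37 on the left and ends at -0.03 on the right, while ALKBH5 lies above it in both.

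The 5 transcripts with the pattern most like ALKBH5, by distance in the plane of the log2 changes over Untreated A and over Untreated B, were AKT1, MKNK2, TNFRSF1A, CSK and CRY1. AKT1 and CSK encode protein kinases, MKNK2 a kinase that phosphorylates the initiation factor eIF4E, TNFRSF1A a receptor for tumour necrosis factor and CRY1 a repressor of the circadian clock. AKT1, the nearest, had 6.18, 11.1 and 20.7 RPKM in Untreated A, Untreated B and G418 A, at a distance of 0.42 log2 units. CRY1, the fifth, had 17.8 RPKM in G418 A and 5.63 RPKM in Untreated A, at a distance of 0.52. In these 5 transcripts Untreated B exceeded Untreated A by log2 0.51 to 0.94, less than in ALKBH5. They rested on 51 to 97 CDS reads in Untreated A and on 211 to 387 in G418 A. The read minimum counted all 3 libraries, so the reads of G418 A helped such transcripts to reach it.

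**Figure D4:**
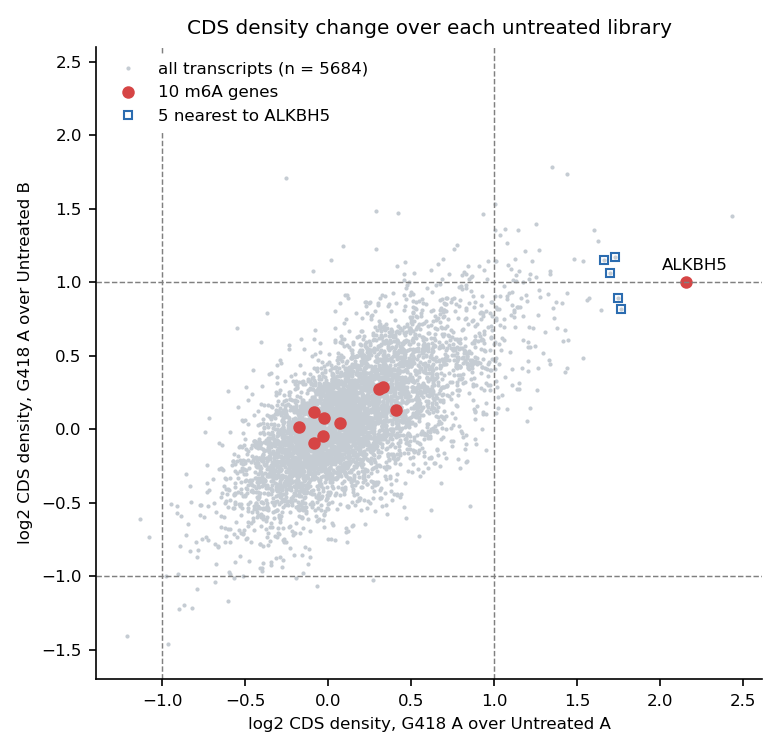
Log2 change of CDS density over Untreated A (horizontal) and over Untreated B (vertical) for 5684 transcripts (grey), the 10 m6A genes (red) and the 5 transcripts nearest to ALKBH5 (blue squares). Dashed lines mark a 2-fold change. ALKBH5 sits at 2.16 and 0.998, and the other m6A genes lie inside the main cloud.

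Reads on the 5′UTR were not used to choose ALKBH5 and did not follow its CDS. The 5′UTR is 416 nt long, has a GC content of 75.7% and holds 4 AUG triplets upstream of the start codon. An upstream AUG is present in 36.4% of the 4415 reference transcripts of the same version. The ALKBH5 5′UTR held 34, 58 and 49 reads in Untreated A, Untreated B and G418 A, a density of 14.2, 14.9 and 16.6 RPKM. All 3 libraries were thus close. The log2 changes of these reads were 0.23 (-0.43 to 0.90) against Untreated A, 0.15 (-0.43 to 0.72) against Untreated B and 0.08 between the untreated libraries (-0.56 to 0.73). All 3 intervals held 0.

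The 5′UTR therefore took a smaller share of ALKBH5 reads with G418, 11.6% (Wilson 95% interval 8.85 to 14.95%), than in Untreated A with 32.7% (24.4 to 42.2%) or Untreated B with 19.3% (15.2 to 24.1%). The density of the 5′UTR relative to the CDS was 1.43, 0.673 and 0.374, a log2 change of -1.49 over the untreated mean. Among 707 transcripts with a mean of at least 30 reads on the 5′UTR, 20.1% were lower by at least 2-fold on this measure and the median was -0.33, with ALKBH5 the 59th lowest. As the CDS of ALKBH5 enters the ratio, its position is again only a description.

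YTHDF3 was the other member with that many 5′UTR reads, 44, 49 and 41, or 7.87%, 6.23% and 6.38% of its reads. Its 5′UTR also holds 4 upstream AUGs, and its log2 change on the relative measure was -0.16. METTL14, with 1 upstream AUG, had 11, 4 and 20 5′UTR reads, so that the untreated libraries differed widely. RBM15 had 0, 1 and 0 reads on a 5′UTR of 900 nt with 9 upstream AUGs. FTO had none in any library on a 5′UTR of 28 nt. All 10 members together had 2.68%, 2.75% and 2.72% of their reads in 5′UTRs, beside 2.05%, 2.14% and 1.83% over all 5684 transcripts.

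Readthrough was scored as the ribosome readthrough score (RRTS), the density between the stop codon and the next in-frame stop codon divided by the CDS density, here in percent. Over all 5684 transcripts G418 A had a pooled RRTS of 21.3%, and the untreated libraries had 1.57% (A) and 1.25% (B). The 10 members together had 5, 11 and 63 readthrough reads. Their pooled RRTS was 3.43% (exact Poisson 95% interval 1.11 to 8.01%), 4.43% (2.21 to 7.94%) and 30.5% (23.4 to 39.0%) in the same order. The pooled readthrough of the group was thus higher in G418 A than in both untreated libraries by more than counting error. The 63 reads in G418 A came from 5 members, with 36 in YTHDF1 and 12 in METTL3. Without YTHDF1, which had the most reads, the pooled RRTS in G418 A was 17.0%. The median RRTS in G418 A was 3.28% over the 10 members and 18.35% over all transcripts. In G418 A the members thus lay above all transcripts by the pooled value and below them by the median. The pooled untreated values leaned on YTHDF3, which held 2 of the 5 reads in Untreated A and 8 of the 11 in Untreated B.

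At least 1 readthrough read was found for 5 members in G418 A, and for 4 and 3 members in Untreated A and B. Over all transcripts this share was 75.8% with G418 and 24.0% and 22.3% without. The members' readthrough regions were short, with a median of 43.5 nt against 60 nt over all transcripts. Among transcripts with a region no longer than the members' median, 64.2% had a readthrough read in G418 A. This set was not matched to the members by region length or CDS reads. The regions of METTL3, RBM15, YTHDC1, YTHDF2 and YTHDF1 were longer than any in it, at 45 to 234 nt.

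YTHDF1 had the most, with 1 and 2 readthrough reads in the untreated libraries and 36 in G418 A, on a region of 234 nt. The RRTS of YTHDF1 was 3.42% and 3.48% untreated and 75.2% with G418 (52.7 to 104%). At the pooled RRTS of the 1054 transcripts with the signal UGAG, which was 22.8% in G418 A, 10.9 reads would have been found, and 90.6% of those transcripts had a lower RRTS. The whole YTHDF1 3′UTR had 16, 8 and 40 reads, so these lay mostly outside the readthrough region in the untreated libraries and mostly inside it in G418 A.

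METTL3 had 0 and 1 readthrough reads untreated and 12 in G418 A on a region of 45 nt. Its RRTS was 0%, 5.13% and 76.8% (39.7 to 134%). The pooled RRTS of the 351 transcripts with UAGA was 20.4% in G418 A, which gives 3.19 reads, and 92.9% of them had a lower RRTS. The whole METTL3 3′UTR, 120 nt long, had 15 reads in G418 A and 1 over both untreated libraries.

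YTHDC1 had no readthrough read in either untreated library and 5 in G418 A, an RRTS of 20.5% (6.66 to 47.9%), where 3.25 reads correspond to the pooled rate of UAAU. YTHDF2, with the signal UAAA, had 1, 0 and 3 reads, and its RRTS of 6.57% in G418 A had an interval of 1.35 to 19.2%. In YTHDF3, with the signal UAAC, the reads were 2, 8 and 7, where 2.11 reads in G418 A correspond to the pooled rate of UAAC. The RRTS of YTHDF3 was 22.5%, 64.2% and 68.0%. For YTHDF3 the untreated libraries therefore already spanned most of the range, and G418 A did not stand apart from Untreated B.

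ALKBH5, FTO, METTL14 and RBM15 had no readthrough read in any library, and WTAP had a single one in Untreated A. ALKBH5 and FTO carry the same UGAG signal as YTHDF1, but their regions were 39 nt and 42 nt long. At the pooled rate of UGAG, 2.84 reads would fall on ALKBH5 and 3.59 on FTO in G418 A, against an upper Poisson bound of 3.69 for a count of 0. That bound corresponds to an RRTS of 29.6% for ALKBH5 and 23.4% for FTO. Both expected counts lay under it, so neither gene, taken alone, could be told apart from other UGAG transcripts at this depth. For FTO the stop codon differs from that of the reference isoform, as given above, and how much of its mRNA used it is not known from these values. For METTL14 and RBM15, under 1 read would be found at the rate of UAAU (0.74 and 0.92). For WTAP it would be 2.97 reads.

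**Figure D5:**
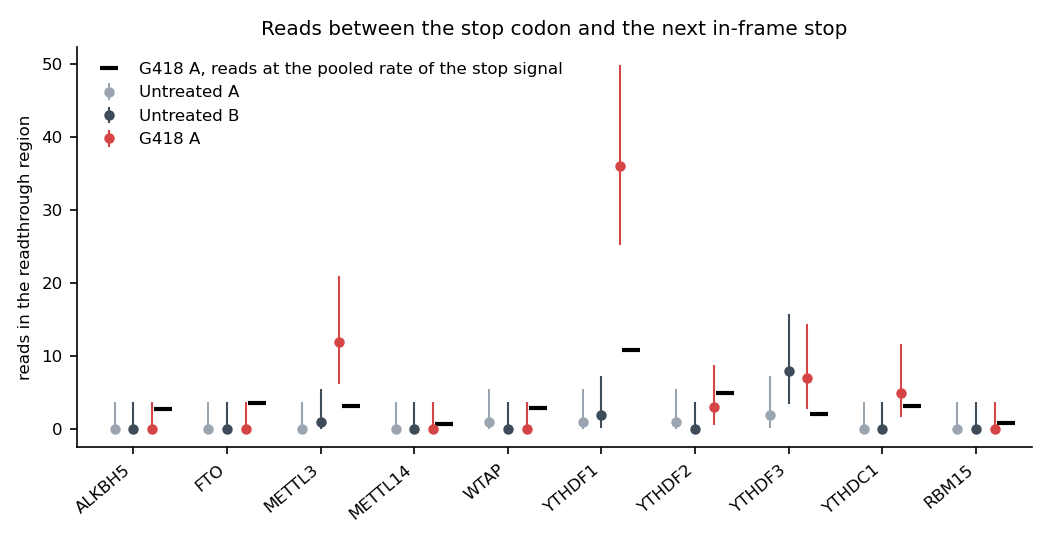
Reads between the stop codon and the next in-frame stop for each m6A gene in Untreated A (light grey), Untreated B (dark grey) and G418 A (red), with exact Poisson 95% intervals. Black dashes give the reads in G418 A at the pooled RRTS of transcripts with the same stop signal. YTHDF1 (36 reads), METTL3 (12 reads) and YTHDF3 (7 reads) lie above their dashes of 10.9, 3.19 and 2.11, which their intervals leave out. YTHDC1 (5 reads) lies above its dash of 3.25, which its interval holds.

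Over the whole 3′UTR, readthrough region included, all 10 members had 27, 27 and 82 reads, 0.608% (Wilson 95% interval 0.418 to 0.883%), 0.373% (0.256 to 0.541%) and 1.34% (1.08 to 1.66%) of their reads. Over all transcripts these shares were 0.292%, 0.246% and 2.42%. ALKBH5 had 3, 1 and 7 reads over its 3′UTR of 1558 nt. FTO and RBM15 had none in any library.

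Of 29 other genes of the pathway, 23 were listed in all 3 libraries and 18 of these reached the read minimum. CBLL1, METTL4, FMR1, ALKBH2, ALKBH6 and MAT2A were not among the transcripts analysed. None of the 23 was past 2-fold over the untreated mean or over Untreated B in either direction. Their median log2 change over the untreated mean was 0.05. Over Untreated A, PCIF1 and ALKBH4 were higher by at least 2-fold, where 6.80% of all 8812 transcripts without a read minimum were. Both were under that minimum.

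PCIF1, which methylates the adenosine next to the mRNA cap, had 2.30, 5.27 and 6.32 RPKM in Untreated A, Untreated B and G418 A. Its untreated libraries thus differed by log2 1.20, and its change over Untreated B was 0.26. ALKBH4, another dioxygenase of the AlkB family, had 7.80, 12.9 and 16.0 RPKM, with log2 0.73 between the untreated libraries. RBM15B, the paralogue of RBM15 in the writer complex, had 4.91, 6.59 and 8.82 RPKM, and ZC3H13 of the same complex had 16.5, 14.6 and 14.2 RPKM. Untreated A was the lowest library and G418 A the highest in PCIF1, ALKBH4, RBM15B, IGF2BP2, MAT2B and PRRC2A, 6 of the 23. The same order held for 5 of the 10 members (ALKBH5, RBM15, WTAP, YTHDC1 and YTHDF1) and for 25.2% of the 5684 transcripts.

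TRMT112, the partner of several methyltransferases, had 253, 287 and 211 RPKM, a log2 change of -0.36 over the untreated mean. AHCY, which clears S-adenosylhomocysteine, had 226, 268 and 194 RPKM, and MAT2B, a subunit of the enzyme that makes S-adenosylmethionine, had 129, 133 and 145 RPKM. Of the binding proteins, IGF2BP3 had 47.5, 50.9 and 36.0 RPKM and IGF2BP2 21.2, 23.5 and 29.6 RPKM, so that these paralogues lay on opposite sides of the untreated values. The DNA and RNA repair dioxygenase ALKBH3 had 24.7, 19.9 and 29.1 RPKM.

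Readthrough of these 23 genes pooled to 2.10%, 1.71% and, in G418 A, 48.3% (44.4 to 52.5%). The median RRTS of the list in G418 A was 27.7%, beside 18.35% over the 5684 transcripts. All of the latter reached the read minimum, but only 18 genes of the list did. TRMT112 held 4, 1 and 135 of the reads, and its RRTS of 211% in G418 A means that the region after its stop codon was more densely occupied than its CDS. HNRNPA2B1, named here after its values were seen, held 6, 3 and 270, an RRTS of 61.6%. These 2 genes gave most of the 564 readthrough reads of the list in G418 A. Without them its pooled RRTS was 23.9% (20.4 to 27.9%), beside 21.3% over all transcripts.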

How the data were processed

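Per the labels, RPFs were sequenced from HEK293T cells in 3 libraries, and the depth behind the RPM scale was 7216039 reads for G418 A, 5857230 for Untreated A and 9477972 for Untreated B. The members and lists were chosen with earlier results of these data known. The authors collapsed duplicates by molecular identifier, aligned reads to hg38 with STAR (named without a version in the submitters' processing notes, beside CASAVA 1.8), kept primary alignments and assigned A sites on 1 transcript per gene, the one with the 3′-most stop codon. The deposited RPM values are reads scaled to a fixed total of reads assigned to transcripts. The authors divided RPM by length to give RPKM densities, with 33 nt of the CDS and 6 nt of each UTR beside it left out. RRTS is a ratio of RPKM densities made by the authors. Whole-number counts deposited by the authors were an alternative only, as in Untreated A they were 1 lower than the reads for 9080 of 9099 transcripts.

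Reads were recovered from RPM (100% of nonzero values were whole within 0.01). Changes are log2 ratios of deposited RPKM with a pseudocount of 0. Counts over all transcripts used those with at least 384 CDS reads summed over the 3 libraries and listed in each. Intervals are 95%: exact Poisson for densities and readthrough, Clopper-Pearson on the reads of 2 libraries for ratios, Wilson for shares. No test was made between conditions. On counts simulated for the change over the untreated mean in 5684 transcripts, all 200 with a 4-fold change were recovered, and the intervals over Untreated A held the true value for 95.2% of transcripts. These counts were Poisson draws from a rate shared by the libraries, without spread between cultures or a trend with GC content. They check the arithmetic only and cannot show how reliable the calls or intervals are in these libraries. Alternatives were edgeR 4.0.16 TMM factors, DESeq2 1.42.0 size factors, other averages and read minimums, and each untreated library left out. Named were all members, pathway genes past 2-fold over both untreated libraries, the 2 with the largest change in each of the pathway's subgroups, and the 5 transcripts nearest to ALKBH5. Gene models, GC content and sequences came from GENCODE release 44 on hg38, which held all 10 member transcripts in the same version. Python 3.11.15, SciPy 1.17.1 and R 4.3.3 were used.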

Additional observations from a re-analysis of the deposited data

How the results depend on the processing

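The log2 change of ALKBH5 over the untreated mean (1.46) ranged from 0.998 without Untreated A, just under the 2-fold line, to 2.16 without Untreated B, and from 1.33 to 1.58 under the other settings. The CDS RPM covers the same bases as the RPKM, so it gave the same ratios by construction. Transcripts higher by at least 2-fold (60) numbered 67 without Untreated A and 126 without Untreated B, 272 with a mean of at least 20 reads, 3 with at least 500 reads and 306 with no minimum. Transcripts lower by as much (5) numbered 12 without Untreated A, 3 without Untreated B, 8 with TMM factors, with size factors and with GC centring, 54 with at least 20 reads, 2 with at least 500 and 77 with no minimum. The median of the other pathway genes (0.05) was -0.021 with TMM, -0.024 with size factors, -0.010 with GC centring (an alternative chosen after seeing the data), 0.12 without Untreated A and 0.026 without Untreated B. The pooled RRTS of the members was 3.93% in untreated cells and 5.42% as a mean of deposited scores, with a range of 3.43 to 4.43% when an untreated library was left out. In G418 A it was 30.5%, or 17.0% without YTHDF1. The 5′UTR share of the members in G418 A minus untreated was 0.00755 percentage points, 0.066 without the member with the most 5′UTR reads and -0.026 to 0.041 without an untreated library. The 3′UTR difference was 0.853 points, 0.465 without the member with the most 3′UTR reads and 0.736 to 0.971 without an untreated library. The cause of these differences was not tested. No paired analysis was possible because the groups share only the letter A. In G418 A, ALKBH5, FTO, METTL14, RBM15 and WTAP had no readthrough read. For each alone, the reads at the pooled rate of its stop signal lay under 3.69, the upper Poisson bound for 0. These genes were not compared together, and why they had none was not tested. For FTO and RBM15 the listed stop codon is also not that of the MANE Select transcript, and its use in these cells was not tested.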
